A study of Mus musculus with 8 samples.

Results

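The 8 genes described here are 6 genes of the contractile apparatus, Acta2, Tagln, Myl9, Cnn1, Tpm1 and Tpm2, and 2 genes of the CCN family, Ctgf and Cyr61, whose current symbols are Ccn2 and Ccn1. They were chosen by symbol among 24421 genes, and 8 of 8 passed the filter on low values that left 12348 genes for testing. RNA was measured by poly-A RNA sequencing in osteoblastic cells isolated from the calvaria of newborn C57BL/6 mice, with 2 libraries for each of 4 groups: WT and Def6-/- cells at day 0, and WT and Def6-/- cells after 12 days in osteogenic medium with ascorbic acid and β-glycerophosphate, which induces osteoblast differentiation. The Def6-/- cells came from mice that lack Def6 in every cell, and both genotypes had the same culture. The libraries of a group are described as biological replicates, but how many animals stand behind a library is not given in the sources used here, so that the p-values measure only the spread between libraries. The samples are cultures of digested calvarial bone and not sorted cells.

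Myofibroblasts are mesenchymal cells with contractile stress fibres, and cultured calvarial cells on plastic are known to carry such fibres too. Acta2 encodes smooth muscle actin, Myl9 a regulatory light chain of myosin II, and Tpm1 and Tpm2 encode tropomyosins, which lie along the actin filament. Tagln encodes transgelin and Cnn1 calponin, both actin-binding proteins. These genes are known targets of serum response factor (SRF) and its MRTF coactivators (Mkl1 and Mkl2), which enter the nucleus when actin polymerises. Ctgf and Cyr61 encode secreted matricellular proteins and are widely used as readouts of YAP and TAZ, coactivators that act with TEAD factors and respond to matrix stiffness and cell spreading. Def6 is a guanine nucleotide exchange factor, and the comparisons of genotypes ask whether its loss moved these genes, which the comparisons of days follow through differentiation.

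In the GENCODE M21 annotation of GRCm38, Acta2 lies on chromosome 19 (34241090 to 34255590, minus strand) and Tagln, Cnn1 and Tpm1 lie on chromosome 9 (45929619 to 45936058, minus; 22099216 to 22109630, plus; 67022590 to 67049406, minus). Myl9 is on chromosome 2 (156775420 to 156781658, plus) and Tpm2 on chromosome 4 (43514711 to 43523765, minus). Ctgf is on chromosome 10 (24595442 to 24598683, plus) and Cyr61 on chromosome 3 (145646976 to 145649981, minus).

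SRF binds the CArG box and TEAD factors bind CATTCC, so the promoters of the 8 genes were searched for both in the RefSeq table of GRCm38.p6, which spans 250 bases before to 50 bases after the start. Of the 8 genes, 6 matched an entry; Tagln and Ctgf did not. Both motifs were searched on both strands as exact matches, the CArG box as CC, 6 bases that are A or T, and GG. Boxes with a mismatch were not searched. A CArG box was in the promoter of Myl9, 161 bases before the start, and in 1.63% of all 32851 promoters of the table. CATTCC was in the promoter of Cyr61, 103 bases before the start, and 14.7% of all promoters held it. On the opposite strand it was in the windows of Acta2 and Tpm1, 146 and 56 bases before the RefSeq start. Both of these matches lie in annotated exons, downstream of the GENCODE start of the gene. The windows of Cnn1 and Tpm2 held neither motif, and that of Tpm2 (43523505 to 43523804) lies largely within its GENCODE gene. The 2 matches that lie outside annotated exons are shown with 25 bases on each side, 5′ to 3′ on the strand of the gene, with the CArG box of Myl9 and the CATTCC of Cyr61 in capitals. A match is a description of the letters in these windows and not a measured binding site.
Myl9 (chr2:156775278-156775337, plus strand): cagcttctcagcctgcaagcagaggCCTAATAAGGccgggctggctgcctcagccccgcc
Cyr61 (chr3:145650058-145650113, minus strand): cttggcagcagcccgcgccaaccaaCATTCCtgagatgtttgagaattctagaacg

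The libraries held between 2414856 and 3482837 reads on genes. Def6 had 112 to 147 reads in the WT libraries and 0 to 1 in the Def6-/- libraries at day 0, and 137 to 186 against 2 in each at day 12. One library stood apart for the genes described here, WT day 0 replicate 1. It had the highest share of reads without a unique position (34.9%, against 21.4% to 26.6% in the other 7) and the lowest share on genes (28.8%, against 29.7% to 35.3%). In that library all 8 genes were higher than in its replicate, by 0.94 to 2.41 on the log2 scale with a median of 1.08, where the median of all tested genes was 0.04. In the other groups, replicate 1 was the higher library for 4 of 8 genes in WT at day 12, for 5 of 8 in Def6-/- at day 0 and for 1 of 8 in Def6-/- at day 12. Differences of the 8 genes and the counts of lists that use WT day 0 are therefore given with and without this library. For smooth muscle and pericyte markers between genotypes, only medians are given without it.

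**Figure D1:**
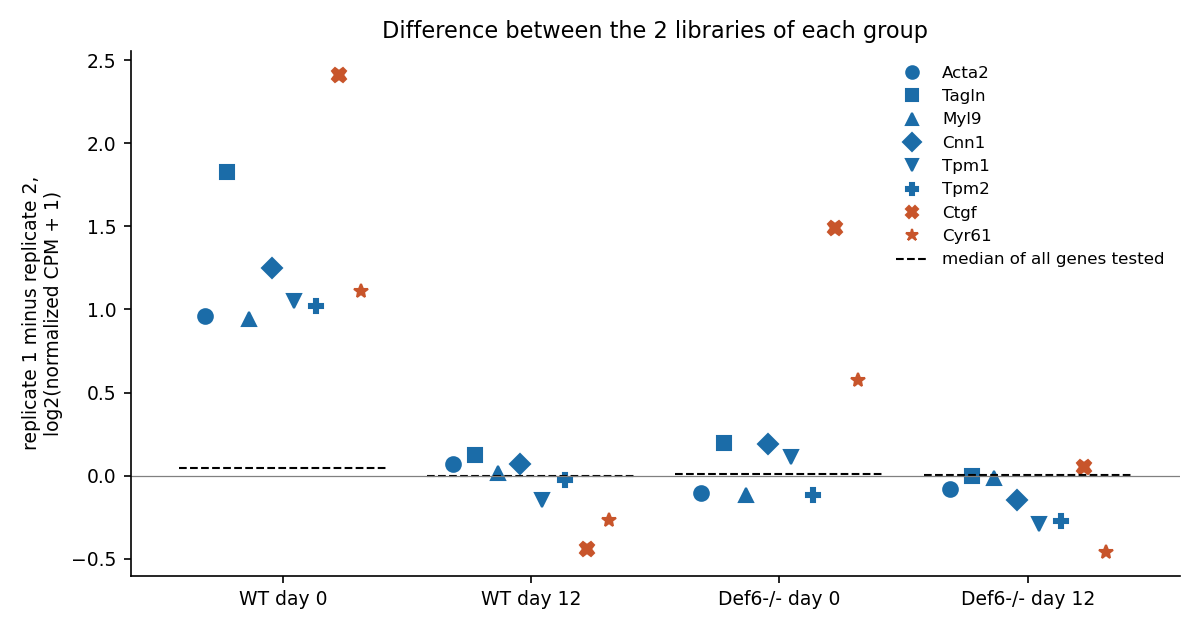
Difference between replicate 1 and replicate 2 of each group on the scale of log2(normalized CPM + 1), 1 marker per gene (blue for contractile genes, orange for CCN genes), with the median of all tested genes as a dashed line. At day 0 in WT all 8 genes lie between 0.94 and 2.41, and Ctgf is also high in Def6-/- at day 0 (1.49).

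Acta2 was at 8316 and 4280 normalized CPM (CPM relative to the reads on genes, scaled with TMM factors) in WT replicates 1 and 2 at day 0, and at 1704 and 1620 at day 12. In Def6-/- cells Acta2 was at 4909 and 5276 at day 0 and at 1536 and 1625 at day 12. Every day 12 library was below every day 0 library, and the 2 genotypes overlapped at both days. Tagln was at 8848 and 2497 normalized CPM in WT at day 0 and at 834 and 765 at day 12. Its levels in Def6-/- cells were 3410 and 2975 at day 0 and 770 and 771 at day 12. Tagln was the contractile gene whose WT day 0 replicates were farthest apart, with a ratio of 3.54 between them. The 3′ end of Tagln overlaps Pcsk7 on the opposite strand, and the strand setting of the counting is not given in the sources used here, so that reads of the overlap cannot be assigned with certainty.

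Tpm2, like Acta2, had every day 12 library below every day 0 library, with 1075 and 529 normalized CPM in WT at day 0 and 297 and 303 at day 12. In Def6-/- cells Tpm2 was at 588 and 637 at day 0 and at 265 and 320 at day 12. Tpm1, its sister gene, showed little of this decline: the WT libraries had 2980 and 1440 normalized CPM at day 0 and 1416 and 1569 at day 12, and the days overlapped. Tpm1 in Def6-/- cells was at 1813 and 1677 at day 0 and at 1313 and 1605 at day 12, which do not overlap. Each gene has several transcripts, and the values are sums over them.

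Myl9 was at 947 and 492 normalized CPM in WT at day 0 and at 466 and 460 at day 12. Myl9 in Def6-/- cells was at 626 and 678 at day 0 and at 436 and 440 at day 12. At both days the spread of Myl9 in Def6-/- cells was small, and in WT at day 12 its replicates had a ratio of 1.01. Cnn1, which had the fewest reads of the 8 genes, was at 350 and 147 normalized CPM in WT at day 0 and at 127 and 121 at day 12. Its Def6-/- values were 187 and 164 at day 0 and 101 and 111 at day 12. For Myl9 and Cnn1 the lower WT library at day 0 was only slightly above the day 12 libraries.

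Ctgf had the widest ratio of levels of the 8 genes, from 4689 and 880 normalized CPM in WT at day 0 to 209 and 283 at day 12. Ctgf in Def6-/- cells was at 2854 and 1014 at day 0 and at 231 and 223 at day 12. At day 0 replicate 1 was above replicate 2 in both genotypes, 5.33 times in WT and 2.81 times in Def6-/- cells. Cyr61 was at 2174 and 1004 normalized CPM in WT at day 0 and at 336 and 405 at day 12. Its levels in Def6-/- cells were 1673 and 1121 at day 0 and 285 and 392 at day 12. For both CCN genes every day 12 library was below every day 0 library. Ctgf overlaps the noncoding gene Gm15270 on the opposite strand (24595442 to 24597108). Unlike Pcsk7, Gm15270 has no value of its own in these data, and its part in the reads of Ctgf is not known.

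**Figure D2:**
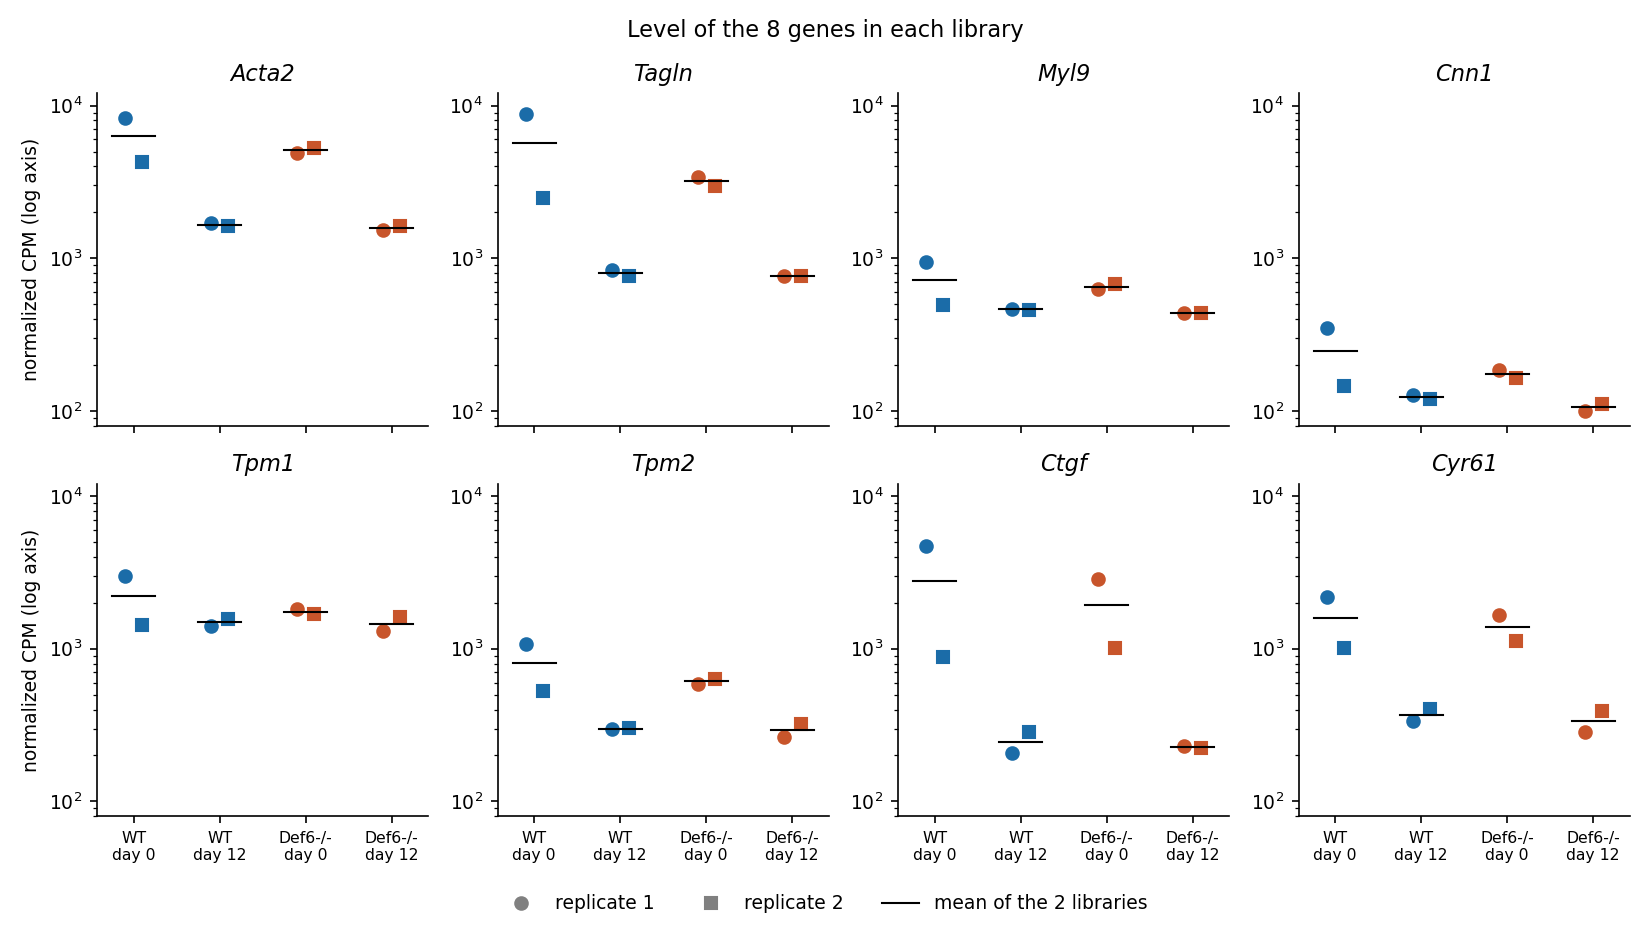
Normalized CPM (log axis) of the 8 genes in each of the 8 libraries, with circles for replicate 1, squares for replicate 2 and a bar at the mean of the 2 libraries, in blue for WT and orange for Def6-/-. The day 12 libraries lie close together in both genotypes (Acta2 1536 to 1704), and WT day 0 replicate 1 is the highest library for all 8 genes (Acta2 8316).

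Per length, as normalized CPM per kilobase of annotated exon, the order at day 12 was the same in both genotypes: Acta2, Tagln, Myl9, Tpm1, Cyr61, Tpm2, Ctgf and Cnn1. In WT at day 12 the level per kilobase of Acta2 was 757 ± 27.1 (SD, n = 2), that of Tagln 402 ± 24.8, that of Myl9 399 ± 3.57 and that of Cnn1 45.2 ± 1.62. Tagln and Myl9 were the neighbours whose WT libraries overlapped. At day 0 in Def6-/- cells, Acta2 (2319 ± 118 per kilobase) and Tagln (1606 ± 154) led the order, Cyr61, Ctgf and Myl9 came next and overlapped, and Cnn1 (64.1 ± 5.99) was again last. At day 0 in WT all neighbours overlapped except Tpm2 and Cnn1. Within the summed level of the 6 contractile genes, Tagln took 26.1% to 39.3% at day 0 and 15.8% to 17.4% at day 12, while Tpm1 took 13.2% to 15.7% at day 0 and 29.2% to 32.9% at day 12. The 6 contractile genes together held 0.991% to 2.21% of the reads on genes in day 0 libraries and 0.426% to 0.485% in day 12 libraries.

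From day 0 to day 12 in WT cells, 5 of the 8 genes fell: Ctgf, Tagln, Cyr61, Acta2 and Tpm2. Genes were called at a Benjamini-Hochberg adjusted p under 0.05 with limma over all 12348 tested genes, of which 5.64% were called lower. Differences are on the scale of log2(normalized CPM + 1). Ctgf fell by 3.06 (SE 0.70, limma adjusted p = 0.0177), a level 8.32-fold lower, and Tagln fell by 2.56 (SE 0.47, adjusted p = 0.00631). Cyr61 fell by 2.0 (SE 0.36, limma adjusted p = 0.00567), Acta2 fell by 1.84 (SE 0.30, adjusted p = 0.00357), a level 3.59-fold lower, and Tpm2 fell by 1.33 (SE 0.30, adjusted p = 0.0157). The differences of Cnn1 (-0.87, SE 0.34, limma adjusted p = 0.116), Myl9 (-0.56, SE 0.27, adjusted p = 0.197) and Tpm1 (-0.47, SE 0.32, adjusted p = 0.337) did not pass. The 2 groups did not overlap for 7 of 8 genes, all lower at day 12, against 26.7% of all tested genes. With 2 libraries a group, an exact permutation test of 1 gene cannot go below p = 0.333. In bulk RNA, fewer cells with contractile fibres and less of this RNA per cell cannot be told apart.

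In Def6-/- cells the same 5 genes fell from day 0 to day 12, where 4.79% of all tested genes were called lower. Ctgf fell by 2.90 on the log2 scale (SE 0.70, limma adjusted p = 0.0229) and Tagln fell by 2.05 (SE 0.47, adjusted p = 0.0187). Cyr61 fell by 2.03 (SE 0.36, limma adjusted p = 0.00544), Acta2 fell by 1.69 (SE 0.30, adjusted p = 0.00540) and Tpm2 fell by 1.07 (SE 0.30, adjusted p = 0.0392). The differences of Cnn1, Myl9 and Tpm1 were -0.72, -0.57 and -0.26, and limma's adjusted p was 0.196 to 0.637. All 8 genes had both day 12 libraries below both day 0 libraries, against 32.5% of all tested genes. Within each genotype the drop was deepest for the CCN genes and Tagln and shallowest for Tpm1.

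Without WT day 0 replicate 1, 5 of 8 genes were called lower in WT, where 9.69% of all tested genes were. The WT differences were then smaller in all 8 genes. Tagln was at -1.64 in place of -2.56, Ctgf at -1.85 in place of -3.06, Cyr61 at -1.44, Acta2 at -1.36 and Tpm2 at -0.82. Of the genes that were not called, Cnn1 was at -0.24, Myl9 at -0.086 and Tpm1 at 0.05. Without WT day 0 replicate 2 all 8 were called lower, as were 21.6% of all tested genes. The number called in WT was 1 without WT day 12 replicate 1 (1.5% of all tested genes) and 2 without WT day 12 replicate 2 (1.3%). Def6-/- cells had 7 genes called lower when WT day 0 replicate 1 or WT day 0 replicate 2 was left out, with 15% and 15.1% of all tested genes, and 4 when WT day 12 replicate 1 or WT day 12 replicate 2 was left out, with 3.27% and 2.92%. They had 1 without Def6-/- day 0 replicate 1 (1.01% of all tested genes), 3 without Def6-/- day 0 replicate 2 (1.94%), 0 without Def6-/- day 12 replicate 1 (1.57%) and 2 without Def6-/- day 12 replicate 2 (1.47%). Every one of these Def6-/- differences kept a negative sign in all 8 genes, from -0.12 for Tpm1 to -3.65 for Ctgf. With WT libraries only in the fit, 3 of 8 genes were called lower in WT, against 1.64% of all tested genes, since Tpm2 and Ctgf no longer passed.

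**Figure D3:**
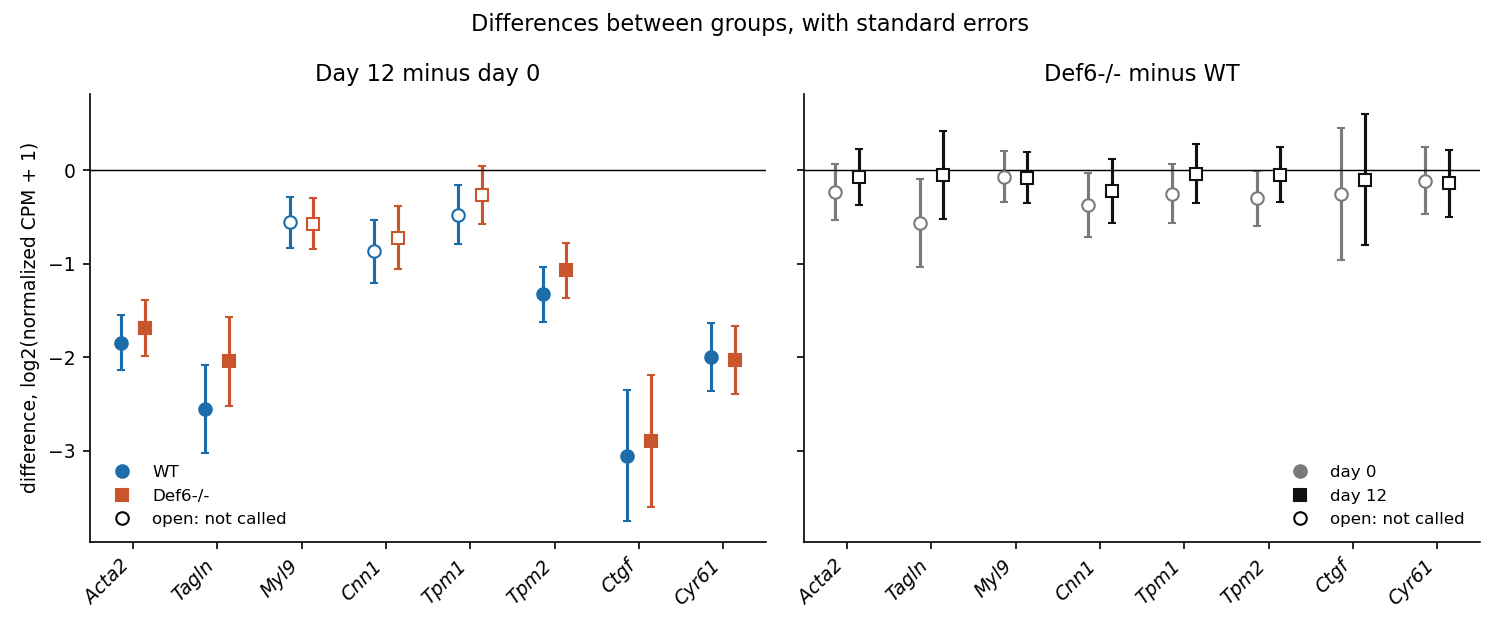
Differences in log2(normalized CPM + 1) with standard errors for the 8 genes, day 12 minus day 0 in each genotype on the left and Def6-/- minus WT at each day on the right, with filled markers for called differences. On the left all 16 values are below 0, from -3.06 (Ctgf in WT) to -0.26 (Tpm1 in Def6-/-), and on the right no marker is filled.

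Between genotypes at day 12, the libraries overlapped for 6 of the 8 genes. Differences, Def6-/- minus WT, ran from -0.22 for Cnn1 to -0.04 for Tpm1, and 0 of 8 genes were called at a limma p under 0.05 with a change over 1.2-fold, against 1.4% of all tested genes. The 8 limma p-values were between 0.530 and 0.916, and their adjusted p was 1 in each case. edgeR and DESeq2 on the recovered reads also called 0 of 8. The 95% interval of the difference from limma was -0.75 to 0.61 for Acta2, -0.70 to 0.54 for Myl9, -1.12 to 1.02 for Tagln and -1.70 to 1.5 for Ctgf. The fit pools 1 spread over the 4 groups, so the SE was the same at day 12 and day 0 (Tagln 0.47, Ctgf 0.70). These intervals and p-values thus carry the spread of the WT day 0 libraries and do not measure that of the day 12 libraries alone. The libraries did not overlap for Myl9 and Cnn1, both lower in Def6-/- cells, which is 2 of 8 genes against 32.7% of all tested genes. Acta2, Tagln, Tpm1 and Tpm2 had a difference just above 0 when CPM was used as deposited.

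At day 0 the differences between genotypes ran from -0.56 for Tagln (95% interval -1.63 to 0.51) to -0.07 for Myl9 (-0.69 to 0.56), and 0 of 8 genes were called by limma or edgeR, against 2.3% of all tested genes. DESeq2 on the recovered reads called Tagln, at -0.82. All 8 genes overlapped between the genotypes, where 22.6% of all tested genes did not. In each of the 8 genes both Def6-/- libraries lay between the 2 WT libraries. Without WT day 0 replicate 1 the sign turned in all 8 genes, from 0.21 for Tpm2 to 0.95 for Ctgf, and Tagln (0.35), Myl9 (0.41) and Ctgf (0.95) were called higher in Def6-/- cells, when 550 genes (4.45% of those tested) were called in all. Without WT day 0 replicate 2 all 8 were called lower in Def6-/- cells, from -0.54 for Myl9 to -1.47 for Tagln, when 4575 genes (37.1%) were called in all. The direction of the genotype difference at day 0 thus rested on which WT library was used.

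The change from day 0 to day 12 was compared between genotypes as an interaction. Its values, the change in Def6-/- minus that in WT, ran from -0.03 for Cyr61 and -0.01 for Myl9 to 0.51 for Tagln (SE 0.67), with limma p-values of 0.465 to 0.973, and 0 of 8 genes were called by limma, edgeR or DESeq2, against 1.13% of all tested genes. The 95% interval was -0.80 to 1.12 for Acta2 and -2.10 to 2.42 for Ctgf. Without WT day 0 replicate 1, Myl9 (-0.49) and Cnn1 (-0.48) were called, where 3.52% of all tested genes were. Without WT day 0 replicate 2, 7 of 8 genes were called with positive values, up to 1.42 for Tagln, where 27% of all tested genes were called.

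Other genes of the same machinery were counted from lists of known function. Some genes are in more than 1 list and are counted in each, such as Vcl (contractile genes and SRF targets) and Lats2 (YAP factors and YAP targets). Over all tested genes, 12.7% were called higher and 5.64% lower in WT from day 0 to day 12, and 12% and 4.79% in Def6-/- cells, and the counts of each list are to be read against these shares. Calls in both genotypes use 1 spread pooled over the 4 groups. The counts in Def6-/- cells therefore also depend on the WT day 0 libraries, and are from the fit of all libraries unless stated. Without WT day 0 replicate 1 the medians of the lists in Def6-/- cells were nearly the same (-0.78 in both fits for the contractile list below). Of 32 other contractile and stress fibre genes, 12 fell and 3 rose in WT from day 0 to day 12, with a median difference of -0.72 where that of all tested genes was -0.0015. Of the same genes, 16 fell and 2 rose in Def6-/- cells, with a median of -0.78. The counts that rose were not above the shares of all tested genes and are too small to be read as a result about the list. When WT day 0 replicate 1 was left out, 15.4% of all tested genes were called higher and 9.69% lower in WT, and 19 of the 32 fell and 4 rose in WT, with a median of -0.56. Zyx, which encodes zyxin of focal adhesions, had mean levels of 744 and 310 normalized CPM at day 0 and day 12 in WT and of 741 and 294 in Def6-/- cells. Actn1, an actin crosslinker, had 857 and 402 in WT and 1064 and 420 in Def6-/- cells. Among the few that rose, Mylk, the kinase of myosin light chains, had 23.9 and 250 in WT and 27.6 and 228 in Def6-/- cells (log2 differences 3.34 and 3.00, limma adjusted p = 3.45e-05 and 4.03e-05). Myl12b, another regulatory light chain, rose by log2 differences of 1.06 and 1.38.

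Of the other CCN genes, 3 of 4 were tested, and Nov (Ccn3) was the one called, in the opposite direction to Ctgf and Cyr61. Its mean level rose from 197 to 1083 normalized CPM in WT and from 175 to 1018 in Def6-/- cells, with log2 differences of 2.44 and 2.60. Wisp1 had 227 and 154 in WT, and Wisp2 had 319 and 223, which did not pass. Both were called lower in WT when WT day 0 replicate 1 was left out.

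Among SRF and its coactivators, 0 of 3 tested genes were called at either genotype in the fit of all libraries. Srf had 141 ± 35.5 normalized CPM (SD, n = 2) at day 0 and 98.2 ± 7.39 at day 12 in WT, and 153 ± 28.7 and 92.8 ± 7.0 in Def6-/- cells, with differences of -0.50 and -0.71 (limma adjusted p = 0.164 and 0.0647). Mkl1 and Mkl2, the MRTF coactivators, differed by -0.21 and 0.40 in WT and by -0.28 and 0.17 in Def6-/- cells. Myocd, the coactivator typical of smooth muscle, had at most 1 read in any library. Of 10 other SRF targets, 1 was called lower in WT (Fos) and 3 in Def6-/- cells (Vcl, Egr1 and Fos), with medians of -0.85 and -0.79. In each genotype 9 of the 10 had a negative difference. At an unadjusted p under 0.05 the 3 genes had 0 in WT and 1 in Def6-/- cells, Srf (limma unadjusted p = 0.0123), where 32.6% and 30.1% of all tested genes were under it. In WT, 0 of the 3 genes and 2 of the 10 targets fell without WT day 0 replicate 1.

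Of 16 YAP, TAZ, TEAD and related factors, 4 fell and 0 rose in WT, and 4 fell and 1 rose in Def6-/- cells. Vgll3, a cofactor of TEAD, was among those that fell in both genotypes (255 to 140 normalized CPM in WT, 278 to 143 in Def6-/- cells). Yap1 itself differed by -0.19 in both genotypes and Wwtr1, which encodes TAZ, by 0.47 and 0.36, and neither passed. Of 23 other YAP and TAZ targets, 7 fell and 3 rose in WT with a median of -0.35, and 9 fell and 0 rose in Def6-/- cells with a median of -0.75. The share of these targets that rose in WT was near the 12.7% of all tested genes. In WT, 11 of these targets fell and 3 rose without WT day 0 replicate 1, and 5 of the factors fell and 1 rose. Axl, a receptor tyrosine kinase, had 399 and 173 normalized CPM in WT and 473 and 156 in Def6-/- cells, and Crim1, a transmembrane protein, had 185 and 59.2 in WT and 218 and 61.0 in Def6-/- cells. In WT the targets that rose included Fjx1 (log2 difference 0.85) and Tgfb2 (1.01).

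Of 12 TGF-beta response genes, 7 fell and 0 rose in each genotype, with medians of -0.95 in WT and -1.11 in Def6-/- cells. The inhibitory Smad6 fell from 91.6 to 40.7 in WT and from 98.7 to 40.8 in Def6-/- cells. Smad7 fell from 80.2 to 20.9 in Def6-/- cells and had similar mean levels in WT, 75.6 at day 0 and 22.3 at day 12. Of 19 matrix and adhesion genes of myofibroblasts, 6 rose and 3 fell in each genotype, where 12.7% and 12% of all tested genes rose and 5.64% and 4.79% fell in WT and Def6-/- cells. Leaving out WT day 0 replicate 1 gave 6 TGF-beta response genes that fell and 0 that rose in WT, and 7 matrix genes that rose and 6 that fell. Postn, which encodes periostin and is also made by osteoblasts, rose from 302 to 1347 normalized CPM in WT and from 294 to 1407 in Def6-/- cells, while the integrin subunit Itgb1 fell from 2149 to 1116 and from 2132 to 1144.

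**Figure D4:**
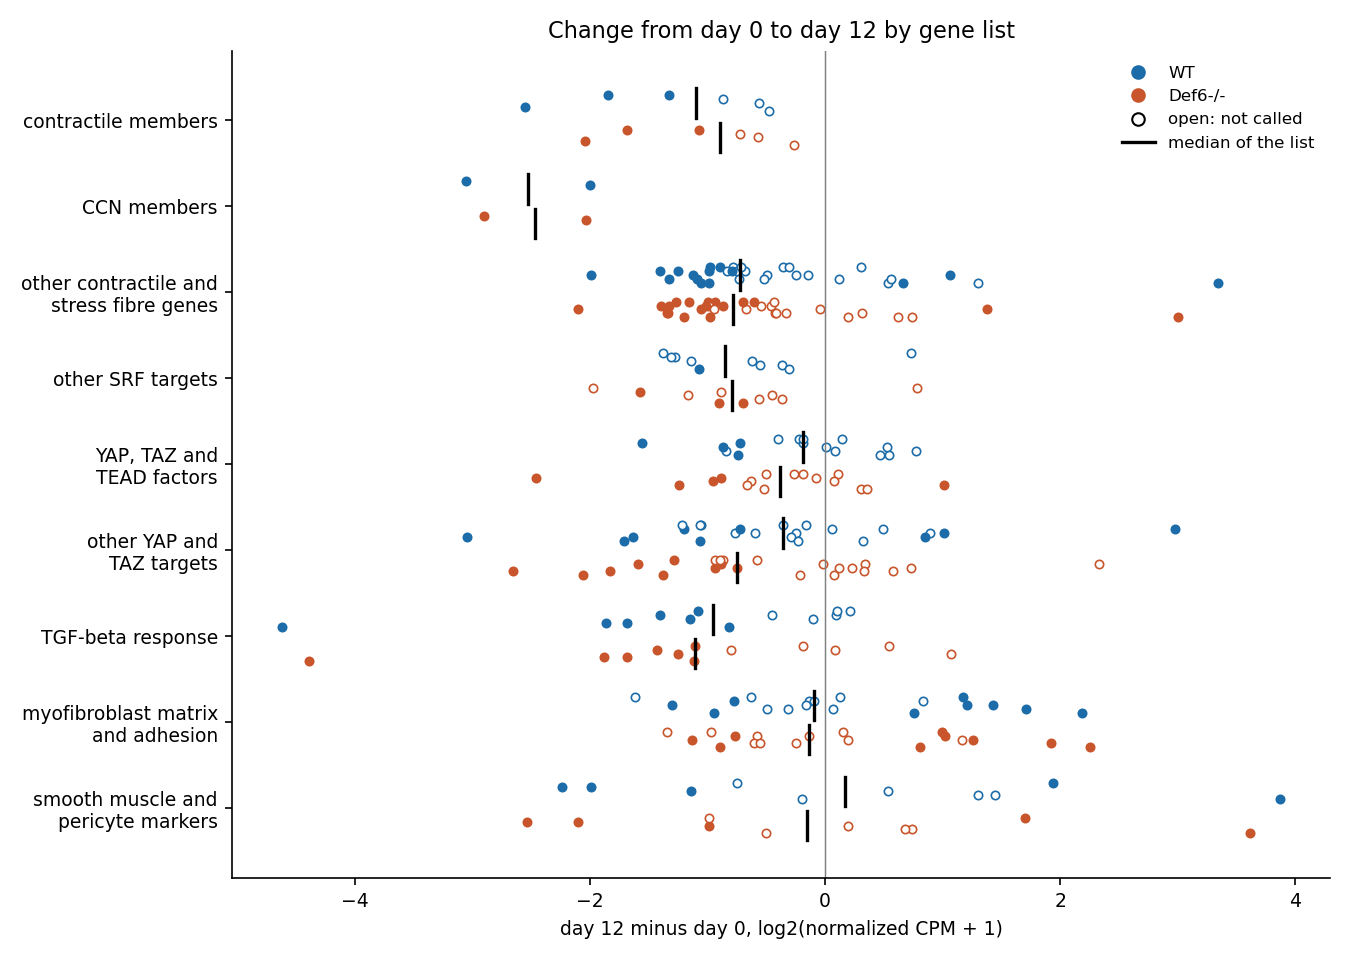
Change from day 0 to day 12 in log2(normalized CPM + 1) for each tested gene of 9 lists, in blue for WT and orange for Def6-/-, with filled markers for called genes and a black bar at the median of the list. The CCN genes described here lie between -3.06 and -2.0, and the matrix and smooth muscle lists spread to both sides of 0.

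Between genotypes, 1.4% of all tested genes were called at day 12 and 2.3% at day 0, so that few calls are to be found in lists of this size. Among the contractile, CCN, SRF, YAP, matrix and TGF-beta lists, limma called 0 genes at day 12, and at day 0 it called 1, Myh11, with mean levels of 6.03 normalized CPM in WT and 13.1 in Def6-/- cells (difference 1.01, SE 0.36). When WT day 0 replicate 1 was left out, 4.45% of all tested genes were called at day 0, among them 4 of the 32 contractile genes, all higher in Def6-/- cells (Myh11 at 1.24, Actg2, Lmod1 and Csrp1). The same fit called 2 matrix genes and 2 TGF-beta response genes higher, 1 YAP target higher and 1 lower, and 1 other CCN gene lower (Wisp2 at -0.34). The interaction had 0 calls in these lists, against 1.13% of all tested genes. Leaving out that library gave 3.52% of all tested genes and, in these lists, 4 contractile genes and 1 matrix gene with negative values, 1 CCN gene (Wisp2) with a positive value and 2 TGF-beta response genes, 1 in each direction.

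Contractile genes also mark smooth muscle cells and pericytes, so a list of 15 markers of those cells was counted. Myh11, Actg2, Lmod1 and Des are also in the list of contractile and stress fibre genes, so their calls are counted in both. Of the 15 markers, 10 were tested. In WT 3 fell and 2 rose from day 0 to day 12, and so in Def6-/- cells, and in WT 3 fell and 3 rose without WT day 0 replicate 1. Actg2, the enteric smooth muscle actin, had 457 and 105 normalized CPM in WT and 423 and 97.7 in Def6-/- cells, while Synm, an intermediate filament gene, rose from 4.19 to 71.9 in WT and from 3.96 to 59.5 in Def6-/- cells. The summed level of the 15 markers was 603 to 996 normalized CPM in day 0 libraries and 415 to 452 at day 12, with WT day 0 replicate 1 the highest, and 2 to 4 of the 15 had 0 reads in a library. Levels differed widely among the 15. Cspg4 had mean levels of 70.9 to 244 normalized CPM, Notch3 of 40.2 to 92.3 and Lmod1 of 45.8 to 94.5. Myh11 had mean levels of 6.03 to 15.1, and Myocd, Casq2, Kcnj8 and Kcnmb1 had at most 1 read in any library. At day 0 all 10 tested markers had a positive difference of mean log2 levels, Def6-/- minus WT. Their median was 0.38, where that of all tested genes was -0.019. Of the 10, 2 were called, against 2.3% of all tested genes. By mean normalized CPM, however, Actg2, Lmod1 (92.5 against 94.5) and Synm were lower in Def6-/- cells at day 0. Without WT day 0 replicate 1 the median of the 10 differences was 0.58. In the interaction their median was -0.28 with all libraries and -0.61 without that library. At day 12, 5 of the 10 were higher in Def6-/- cells and 5 lower, with 1 called, against 1.4% of all tested genes. Cspg4 (NG2) was called higher in Def6-/- cells at both days, by 0.74 at day 12 and 0.59 at day 0. Its day 0 difference was 0.45 without WT day 0 replicate 1. The part of these cells in the levels of the 8 genes was not tested.

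Markers of other cell types moved with the day as well. Of 12 macrophage markers, 10 rose and 0 fell in each genotype, with and without WT day 0 replicate 1, where 12.7% and 12% of all tested genes rose, and 11 of them, without Ptprc, summed to 189 to 408 normalized CPM at day 0 and 2923 to 5912 at day 12. The 12 osteoblast markers, of which 6 rose in WT (7 without WT day 0 replicate 1) and 7 in Def6-/- cells, summed to 36487 to 52030 at day 0, lowest in WT day 0 replicate 1, and to 95355 to 133475 at day 12. The 15 markers of cycling cells summed to 440 and 492 in replicate 1 of WT and Def6-/- at day 0 and to 975 and 789 in replicate 2, against 392 to 508 at day 12; the replicates 1 were also those with the higher Ctgf and Cyr61. Skeletal muscle markers summed to 3.53 to 15.4 normalized CPM in any library, with Pax7 and Myod1 at 0 reads in all, and endothelial markers to 8.68 to 20.5, with Emcn at 0 reads in all. The part of these cell types in the changes of the 8 genes was not tested.

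The pattern of the 6 contractile genes over the 8 libraries was compared with each tested gene, by the root mean square (RMS) difference of centred log2 levels from the mean of the 6. Tpm2 was nearest to the mean of the other 5 contractile genes (0.08) and Tagln was farthest (0.72). The nearest other genes were Esd (0.11), Snrpf (0.12), Ran (0.12), Thyn1 (0.12) and Ctu2 (0.13), where the pattern itself spanned 2.01. Esd had mean levels of 325 and 116 normalized CPM at day 0 and day 12 in WT and 216 and 117 in Def6-/- cells. For the mean of Ctgf and Cyr61, which spanned 3.63, the nearest were Rnd1 (0.19), Ntf3 (0.26), Mcam (0.29), Pkp1 (0.30) and Lurap1l (0.30). Rnd1 had 36.1 and 5.85 normalized CPM in WT and 31.6 and 5.67 in Def6-/- cells. These likenesses are over 8 libraries that share their depth and the difference between days, and carry no test. Over the 7 libraries other than WT day 0 replicate 1, 0 of the 5 genes nearest to the contractile pattern were among its nearest 5, which were Dstn (0.06), S100a6 (0.06), Jph2 (0.06), Uhrf1bp1l (0.07) and Actb (0.08), with the pattern spanning 1.14. For the CCN pattern 2 of 5, Rnd1 and Ntf3, were again among the nearest.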

How the data were processed

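Poly-A RNA of 8 libraries was sequenced on an Illumina instrument. Per the labels, the authors used fastp, HISAT2, HTSeq and edgeR with the mm10 build, and the deposited values are CPM of all reads, those outside genes included. The 5 lines that name no gene were left out, and reads on genes were 28.8% to 35.3% of a library. Whole reads were recovered for 99.96% of the 114821 positive values (tolerance 0.05 reads), with exceptions in 9 genes, none of them among the 8 described here. CPM were rescaled to the reads on genes, using TMM factors. Genes whose deposited CPM averaged 1 or more in any group were tested with limma 3.58.1 (R 4.3.3, trend, two-sided) on log2(CPM + 1) in a fit of the 4 group means. The study's own design named edgeR; because the files hold CPM, edgeR 4.0.16 and DESeq2 1.42.0 on recovered reads were alternatives. Comparisons of days were called at an adjusted p under 0.05, those of genotypes and the interaction at p under 0.05 and over 1.2-fold. Fold changes on this scale understate changes of genes with few reads. The test was checked on simulated data with the same dispersion in all groups. That setting holds no library that stands apart, as WT day 0 replicate 1 does here, so it does not check calls that depend on it.

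The 8 genes and all lists were chosen with earlier results of these data known. Genes of other lists were named as the called genes of smallest p, at most 2 per direction, list and comparison, and the 5 genes nearest in pattern. Some markers of cell types were also named for their levels. Positions and exon lengths are from GENCODE M21 (GRCm38), promoters from RefSeq (GRCm38.p6). The replicates within each group were farther apart than sampling noise allows (chi-square per gene 4.29 to 31.0), so each library was kept as a sample. Some genes and 1 list of the design are not reported here.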

Additional observations from a re-analysis of the deposited data

How the results depend on the processing

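The falls of Acta2, Tagln and Cyr61 from day 0 to day 12 kept their sign and their call in both genotypes under each alternative other than leaving out a library. In WT, Tpm2 (-1.33) and Ctgf (-3.06) were not called when only the groups compared were fitted, and Cnn1 was called by DESeq2 (-1.0). Tpm2 (-1.07) was not called in Def6-/- cells without a filter, and Myl9 (-0.57) and Cnn1 (-0.72) were called there when only the groups compared were fitted. That fit called 3 of the 8 genes and 1093 of all genes in WT (2261 in the fit of all libraries), 3913 in Def6-/- cells (2075), 554 between genotypes at day 12 (173) and 100 at day 0 (284). Without a filter 459 genes were called at day 12 and 326 for the interaction (139), and DESeq2 called 85 and 45, and 1 of the 8 genes at day 0 (Tagln). With CPM as deposited the called genes were 119 higher and 51 lower at day 12 (100 and 73 with TMM) and 138 and 53 at day 0 (122 and 162), where edgeR gave 100 and 210 and DESeq2 35 and 177. The sign of differences near 0 turned with CPM as deposited for Acta2 (0.00060), Tagln (0.021), Tpm1 (0.035) and Tpm2 (0.028) at day 12 and for Myl9 (0.079) and Cyr61 (0.036) at day 0, and in the interaction for Myl9 and Cyr61 with edgeR (0.061 and 0.057) and DESeq2 (0.050 and 0.047). The cause of these turns was not tested.

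With the replicate block 5, 5, 0, 0 and 0 of the 8 genes were called (WT days, Def6-/- days, day 12, day 0, interaction), as without it, and 2552, 2284, 202, 361 and 170 of all genes, and it changed no call of the 8 genes. The labels give same-numbered libraries only a shared number, and whether they share a batch or culture was not tested. Their deviations correlated by 0.33 between the day 0 groups and by 0.0023 to 0.15 for the other pairs of groups.

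Leaving out each library in turn leaves a group with 1 library, which is then assumed to vary like the other groups. The 8 genes called ranged from 1 to 8 in WT, 0 to 7 in Def6-/- cells, 0 to 8 at day 0 and 0 to 7 in the interaction, and stayed at 0 at day 12. All genes called ranged from 838 to 5693, 926 to 4328, 154 to 4575, 89 to 3334, and, at day 12, 108 to 458. Tpm1 ranged from -1.0 to 0.050 in WT. Between genotypes at day 12 the range was -0.11 to 0.0068 for Tagln, -0.18 to 0.11 for Tpm1, -0.18 to 0.091 for Tpm2, -0.32 to 0.12 for Ctgf and -0.37 to 0.089 for Cyr61. At day 0 it was -0.71 to 0.25 for Acta2, -1.47 to 0.35 for Tagln, -0.54 to 0.41 for Myl9, -0.99 to 0.25 for Cnn1, -0.77 to 0.28 for Tpm1, -0.81 to 0.21 for Tpm2, -1.46 to 0.95 for Ctgf and -0.67 to 0.45 for Cyr61. In the interaction it was -0.32 to 0.64 for Acta2, -0.40 to 1.42 for Tagln, -0.49 to 0.46 for Myl9, -0.48 to 0.77 for Cnn1, -0.31 to 0.73 for Tpm1, -0.25 to 0.77 for Tpm2, -1.05 to 1.36 for Ctgf and -0.59 to 0.53 for Cyr61. At day 0 and in the interaction both ends came from leaving out a WT day 0 library. The 8 genes had 245 to 22420 reads in a library, and the 2 libraries of a group limit the estimate of their spread.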
